A study of Mus musculus with 6 samples.

Results

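Immediate early genes are switched on within minutes of a stimulus and need no new protein synthesis for it, because the factors that activate them are already present in the cell. This account covers 10 mouse genes of that kind that encode transcription factors, chosen by name from the 35275 genes of the table: Fos, Fosb, Jun and Junb, whose proteins pair to form AP-1, the related factor Atf3, the zinc-finger factors Egr1, Egr2 and Egr3, the orphan nuclear receptor Nr4a1 and the Krüppel-like factor Klf4. All 10 were found and all 10 passed the filter on low values. Growth factors, cytokines, cAMP and cell stress induce these genes, and the handling of tissue between death and freezing can do so as well, so each value is given by sample.

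The samples were 3 of TfrcAKO and 3 of Tfrcfl/fl epididymal adipose tissue, the visceral fat pad beside the testis. TfrcAKO is known as a deletion of the transferrin receptor gene in adipocytes, and Tfrcfl/fl mice carry loxP-flanked Tfrc; the labels do not spell out AKO, and the Cre driver is not given in the sources used here. All mice were male, of strain C57BL/6 and 4.5 months old at sampling, after 10 weeks on a diet of 60% fat that began at 2 months of age. Time to freezing is not given in the sources used here, and no label states that samples came from different animals; p-values here describe the spread over these libraries, which may be technical.

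The libraries held 25252839 to 30650624 reads assigned to genes. Tfrc was 7.10, 8.27 and 9.50 FPKM (fragments per kilobase of gene, scaled to library depth) in TfrcAKO replicates 1, 2 and 3, against 11.1, 13.2 and 11.9 FPKM in Tfrcfl/fl tissue (log2 fold change −0.52, SE 0.12, limma adjusted p = 0.0147), so no library went against its label; the limma adjusted p was 0.0596 without Tfrcfl/fl replicate 2 and 0.0527 without Tfrcfl/fl replicate 3. A whole-tissue value also holds reads from cells that keep the gene and from exons outside a deleted part. Of all tested genes 31.0% were lower in every TfrcAKO library than in every Tfrcfl/fl library, so the Tfrc values are a weak check of the labels. All 14 mature adipocyte markers were detected, and the 8 epididymis markers summed to between 0.0729 and 1.90 FPKM in TfrcAKO and between 0.0942 and 0.242 FPKM in Tfrcfl/fl tissue, with 3 of the 8 at 0 in all samples. TfrcAKO replicate 3 stood apart, with summed FPKM of 14 macrophage markers at 1507, against 3363 and 3134 in the other TfrcAKO libraries and 6099, 7031 and 6350 in Tfrcfl/fl libraries. In bulk tissue, fewer cells of a type and less RNA per cell cannot be told apart.

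Most of the 10 genes were lower in TfrcAKO fat. Under limma with Benjamini-Hochberg adjustment over all tested genes, 6 members fell (Fos, Jun, Junb, Atf3, Egr2 and Egr3), 2 rose (Nr4a1 and Klf4) and 2 did not pass an adjusted p of 0.05 (Fosb and Egr1). Over all 14383 tested genes 43.5% were called, 21.6% lower and 21.9% higher. The members had a median log2 fold change of −0.86, and all tested genes one of −0.03. The members' FPKM summed to 203, 172 and 106 in TfrcAKO replicates 1, 2 and 3, against 295, 376 and 335 in Tfrcfl/fl tissue, so the groups did not overlap. Without TfrcAKO replicate 3 the counts were again 6 lower and 2 higher, but the 2 higher were then Fosb and Klf4, and Nr4a1 did not pass. Without Tfrcfl/fl replicate 2 or 3 the counts were 2 lower and 0 higher. The count higher was also 0 without TfrcAKO replicate 1, TfrcAKO replicate 2 or Tfrcfl/fl replicate 1, where 7, 4 and 6 members were lower. Groups did not overlap for 9 members, 6 lower and 3 higher; over all tested genes 60.1% had such groups, 31.0% lower and 29.1% higher.

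**Figure D1:**
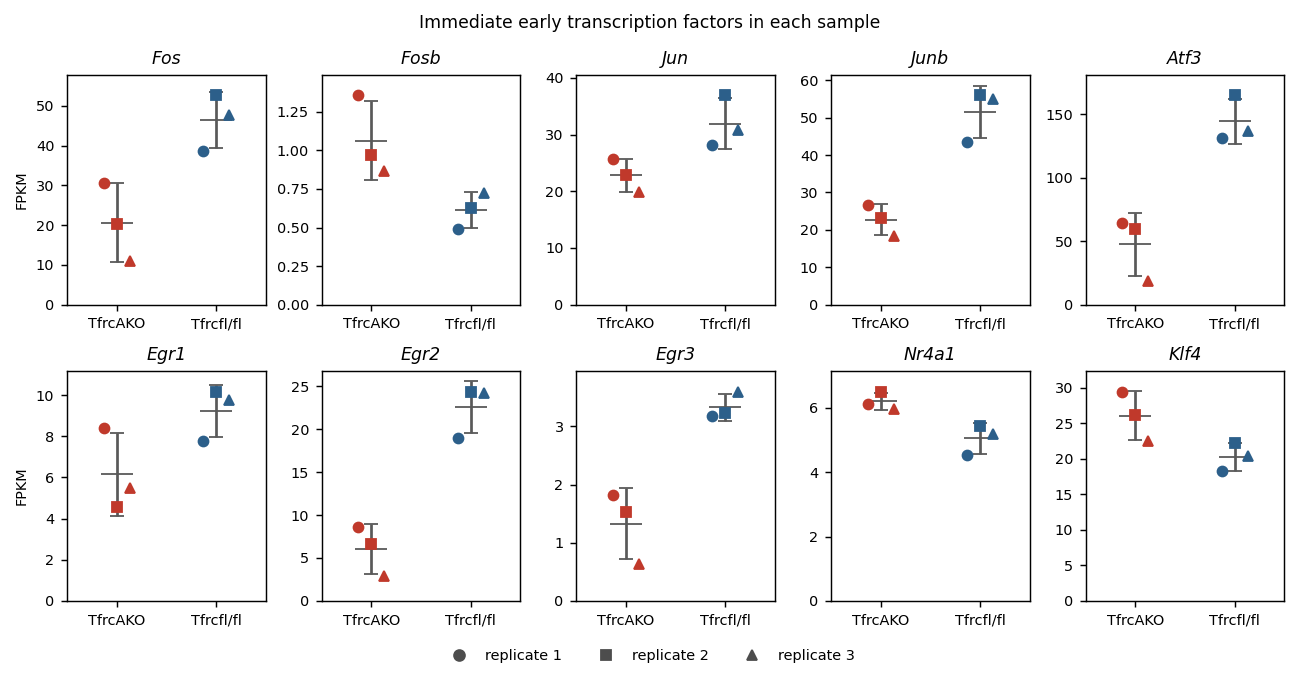
FPKM (y axis, linear from 0) of each of the 10 genes in TfrcAKO (red, left) and Tfrcfl/fl (blue, right) samples; symbols give the replicate, and the horizontal mark and bars the mean ± SD of 3 samples. Atf3, Egr2, Fos and Junb lie lower in every TfrcAKO sample, Klf4, Nr4a1 and Fosb higher, and Egr1 overlaps.

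The promoters of these genes hold short elements through which they respond to signals. The 250 bases before a RefSeq transcription start, from RefSeq's sequence on GRCm38.p6 (the build mm10 stands for), were in the table used here for 8 members, all but Egr1 and Egr3; those of Atf3, Fos and Junb, which were lower in TfrcAKO tissue, and of Nr4a1, which was higher, are shown to set members of opposite direction side by side. Capitals mark the cAMP response element half-site TGACG or its reverse complement CGTCA, and the TATA box TATAAA. The windows are chr1:191183334-191183583, minus strand for Atf3; chr12:85473640-85473889, plus strand for Fos; chr8:84978749-84978998, minus strand for Junb; and chr15:101266596-101266845, plus strand for Nr4a1.
Atf3: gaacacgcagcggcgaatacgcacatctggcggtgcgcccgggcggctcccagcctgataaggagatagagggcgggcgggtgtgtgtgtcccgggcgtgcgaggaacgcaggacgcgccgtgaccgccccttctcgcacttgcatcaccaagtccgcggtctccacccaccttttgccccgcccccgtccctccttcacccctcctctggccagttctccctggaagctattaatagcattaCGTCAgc
Fos: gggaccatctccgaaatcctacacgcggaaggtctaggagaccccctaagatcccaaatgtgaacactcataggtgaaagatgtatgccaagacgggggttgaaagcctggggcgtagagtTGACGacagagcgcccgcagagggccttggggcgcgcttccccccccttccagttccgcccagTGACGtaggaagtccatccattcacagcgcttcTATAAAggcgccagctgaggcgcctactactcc
Junb: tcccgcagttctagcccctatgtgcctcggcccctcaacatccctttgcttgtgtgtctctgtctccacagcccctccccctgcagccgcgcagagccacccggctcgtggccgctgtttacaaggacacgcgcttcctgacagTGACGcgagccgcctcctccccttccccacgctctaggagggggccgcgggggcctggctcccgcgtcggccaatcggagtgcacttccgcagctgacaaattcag
Nr4a1: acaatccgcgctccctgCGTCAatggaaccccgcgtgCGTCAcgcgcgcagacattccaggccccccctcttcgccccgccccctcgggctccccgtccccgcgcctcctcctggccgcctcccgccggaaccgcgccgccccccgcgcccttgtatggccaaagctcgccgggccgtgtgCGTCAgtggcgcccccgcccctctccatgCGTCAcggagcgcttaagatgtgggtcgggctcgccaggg
The last 7 bases of the Atf3 window, which hold its half-site, lie inside the gene as counted, because the RefSeq start differs from the end of the counted gene; the windows of Fos, Junb and Nr4a1 lie outside theirs. A half-site, on either strand, was in 7 of the 8 windows, all but that of Jun, and in 17.8% of 32851 promoter windows of this length. It lay in windows of members that fell (Fos, Junb, Atf3 and Egr2) and of members that rose (Nr4a1, with 4 matches, and Klf4). The CArG box, which serum response factor binds, was in the Egr2 window alone among the 8, searched on both strands, and in 1.47% of all windows. The Egr2 matches depend on the start taken: the table lists 5 windows, and all 250 bases of the one counted here lie inside the gene as counted. A half-site was in 3 of the 5 and a CArG box in 4 of the 5, and the window at the start of the counted gene held neither. The TATA box, searched on the sense strand, was in the Fos window alone and in 7.59% of all windows. The AP-1 site TGANTCA was in none of the 8 windows and in 6.75% of all, and the GC box GGGCGG, not marked, was in 6 of 8 and 32.7% of all, both counted on either strand. Matches of different motifs did not overlap. A match is a description of these letters only. Variants of these motifs within the windows were not searched, nor were bases further upstream. A window without a match may thus still hold a related site, and a motif absent here may lie further upstream.

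Fos encodes the AP-1 subunit that cannot pair with itself and works with a Jun partner (ENSMUSG00000021250, mm10 chromosome 12, 85473890 to 85477273, plus strand). Its level was 30.6, 20.3 and 10.9 FPKM in TfrcAKO replicates 1, 2 and 3, against 38.7, 52.6 and 47.7 FPKM in Tfrcfl/fl replicates 1, 2 and 3. Every TfrcAKO sample lay below every Tfrcfl/fl sample, and the 3 TfrcAKO samples differed among themselves by 2.82-fold. The means were 20.6 ± 9.89 FPKM in TfrcAKO and 46.3 ± 7.04 FPKM in Tfrcfl/fl tissue (SD, n = 3 each). On the log2(FPKM + 0.5) scale Fos fell by 1.26 (SE 0.35, limma adjusted p = 0.0263). Without TfrcAKO replicate 3 the change was −0.87 (limma adjusted p = 0.0136), and the limma adjusted p was 0.0571, 0.0912 and 0.0808 without TfrcAKO replicate 2, Tfrcfl/fl replicate 2 and Tfrcfl/fl replicate 3.

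Fosb, a close relative of Fos (ENSMUSG00000003545, chromosome 7, 19302721 to 19310045, minus strand), lay the other way and was the least abundant member by mean in both genotypes. It was at 1.36, 0.969 and 0.866 FPKM in TfrcAKO tissue, against 0.493, 0.624 and 0.724 FPKM in Tfrcfl/fl tissue, which were 156, 96 and 82 reads in TfrcAKO and 54, 61 and 80 reads in Tfrcfl/fl libraries. The groups did not overlap, but the closest libraries, TfrcAKO replicate 3 and Tfrcfl/fl replicate 3, had 82 and 80 reads. Tfrcfl/fl replicate 1 lay under the filter level of 0.5 FPKM, so Fosb met the filter only with the help of its TfrcAKO values. The log2 fold change was 0.48 with a 95% interval of 0.09 to 0.87 and a limma adjusted p of 0.0515. Without TfrcAKO replicate 3 it was 0.57, with a limma adjusted p of 0.0358; on recovered reads limma-voom gave 0.83 with an adjusted p of 0.0249. Without any other single library Fosb did not pass, with limma adjusted p between 0.0801 and 0.145, nor with no filter (0.0833). The ratio of Fosb to Fos, chosen after the values were seen and not tested, was 0.0443, 0.0478 and 0.0797 in TfrcAKO and 0.0128, 0.0119 and 0.0152 in Tfrcfl/fl tissue.

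Jun, the partner that can also pair with itself (ENSMUSG00000052684, chromosome 4, 95049034 to 95052222, minus strand), changed least among the 6 members that fell. It was at 25.7, 22.9 and 19.8 FPKM in TfrcAKO and 28.2, 36.9 and 30.8 FPKM in Tfrcfl/fl tissue. The groups did not overlap, with the nearest samples at 25.7 FPKM in TfrcAKO and 28.2 FPKM in Tfrcfl/fl tissue. Jun fell by 0.48 on the log2 scale (SE 0.13, limma adjusted p = 0.0273), and by 0.38 without TfrcAKO replicate 3 (−0.38, limma adjusted p = 0.0415). The limma adjusted p was 0.0637 without TfrcAKO replicate 2, 0.0838 without Tfrcfl/fl replicate 2 and 0.0727 without Tfrcfl/fl replicate 3. The antisense gene Junos overlaps it, at 1.42 to 2.06 FPKM over the 6 samples, and no source used here gives the strand setting of the counting; reads of this pair of genes cannot be told apart.

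Junb, which often opposes Jun at AP-1 sites (ENSMUSG00000052837, chromosome 8, 84976909 to 84978748, minus strand), was at 26.7, 23.2 and 18.4 FPKM in TfrcAKO and 43.4, 56.0 and 55.1 FPKM in Tfrcfl/fl tissue. The groups lay far apart against their spread, with means of 22.8 ± 4.20 FPKM in TfrcAKO tissue and 51.5 ± 7.01 FPKM in Tfrcfl/fl tissue (SD, n = 3 each). It fell by 1.17 (SE 0.16, limma adjusted p = 0.00426) and passed in each of the 6 fits that left out 1 library, with adjusted p between 0.00126 and 0.0270. The ratio of Junb to Jun was 1.04, 1.02 and 0.927 in TfrcAKO and 1.54, 1.52 and 1.79 in Tfrcfl/fl tissue, likewise chosen after the values were seen and not tested. The 4 AP-1 members together summed to 84.4, 67.3 and 49.9 FPKM in TfrcAKO and 111, 146 and 134 FPKM in Tfrcfl/fl tissue.

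Atf3, a factor of the ATF/CREB family that cell stress and inflammatory signals induce (ENSMUSG00000026628, chromosome 1, 191170296 to 191183340, minus strand), was the most abundant of the 10 by mean in both genotypes. It stood at 64.2, 59.3 and 18.7 FPKM in TfrcAKO replicates 1, 2 and 3, against 131, 165 and 137 FPKM in Tfrcfl/fl tissue. Replicate 3 set most of the spread in TfrcAKO, and even the highest TfrcAKO sample was under every Tfrcfl/fl sample. The means were 47.4 ± 24.96 FPKM in TfrcAKO and 144 ± 17.9 FPKM in Tfrcfl/fl tissue (SD, n = 3 each), and Atf3 fell by 1.78 on the log2 scale (SE 0.45, limma adjusted p = 0.0198). Without TfrcAKO replicate 3 the change was −1.21, with a limma adjusted p of 0.000562. Without Tfrcfl/fl replicate 2 or 3 the limma adjusted p was 0.0729 or 0.0609. Atf3 made up 31.6%, 34.5% and 17.7% of the members' summed FPKM in TfrcAKO and 44.5%, 43.8% and 41.0% in Tfrcfl/fl tissue.

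**Figure D2:**
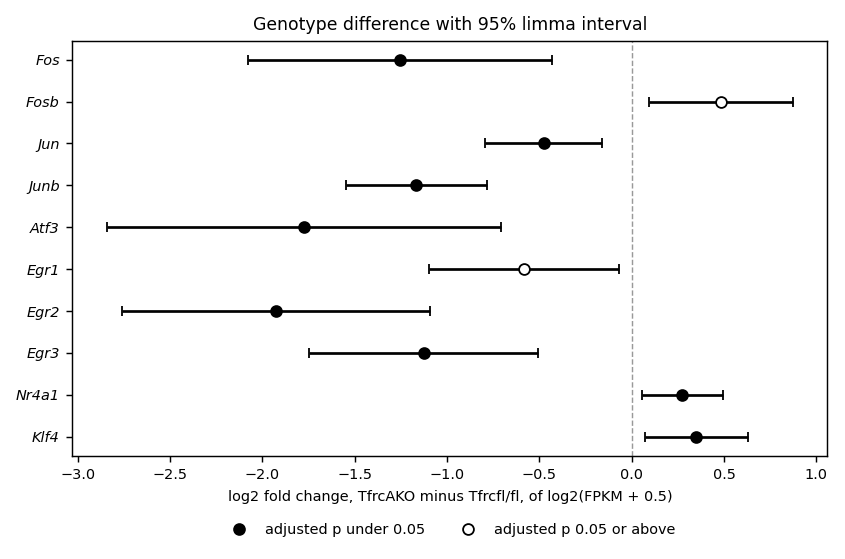
Log2 fold change, TfrcAKO minus Tfrcfl/fl, of log2(FPKM + 0.5) for each of the 10 genes (points) with 95% limma intervals (bars); filled points passed an adjusted p of 0.05. Egr2 and Atf3 lie lowest at −1.93 and −1.78, and Fosb, Klf4 and Nr4a1 lie above 0 at 0.48, 0.35 and 0.27.

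The EGR proteins bind GC-rich sites through 3 closely similar zinc fingers, and Egr2 is also known from macrophages and from the early steps of fat cell differentiation. Egr2 (ENSMUSG00000037868, chromosome 10, 67535475 to 67542188, plus strand) was at 8.58, 6.66 and 2.86 FPKM in TfrcAKO, against 19.0, 24.3 and 24.2 FPKM in Tfrcfl/fl tissue. All TfrcAKO values were well under the lowest Tfrcfl/fl value, and the mean in Tfrcfl/fl was 3.73 times that in TfrcAKO. It fell by 1.93 (SE 0.35, limma adjusted p = 0.00778), the largest fall among the members, and passed in all 6 fits that left out 1 library, with log2 fold changes between −2.22 and −1.51.

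Egr3, known from T cells and muscle spindles (ENSMUSG00000033730, chromosome 14, 70077445 to 70080157, plus strand), was at 1.82, 1.52 and 0.643 FPKM in TfrcAKO and 3.17, 3.23 and 3.59 FPKM in Tfrcfl/fl tissue. These were 79, 57 and 23 reads in TfrcAKO and 131, 119 and 150 reads in Tfrcfl/fl tissue, with no overlap. It fell by 1.13 (SE 0.26, limma adjusted p = 0.0151), and the limma adjusted p was 0.0538 without Tfrcfl/fl replicate 2 and 0.0580 without Tfrcfl/fl replicate 3. Without TfrcAKO replicate 3 the log2 fold change was −0.82.

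Egr1 (ENSMUSG00000038418), which growth factors induce through serum response factor, was the only member whose groups overlapped. It was at 8.41, 4.54 and 5.49 FPKM in TfrcAKO, against 7.79, 10.2 and 9.77 FPKM in Tfrcfl/fl tissue, with TfrcAKO replicate 1 above Tfrcfl/fl replicate 1. Its log2 fold change was −0.58 with a 95% interval of −1.10 to −0.07 and an adjusted p from limma of 0.0667; leaving out TfrcAKO replicate 1 gave −0.82 and 0.00999. Without any other single library Egr1 did not pass, with limma adjusted p between 0.0755 and 0.184, and the change was −0.41 without TfrcAKO replicate 2. The ratio of Egr2 to Egr1, not tested, was 1.02, 1.47 and 0.520 in TfrcAKO and 2.44, 2.39 and 2.48 in Tfrcfl/fl tissue.

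Nr4a1, an orphan nuclear receptor also called Nur77 that β-adrenergic signalling induces in fat (ENSMUSG00000023034, chromosome 15, 101266846 to 101274792, plus strand), was at 6.12, 6.49 and 5.97 FPKM in TfrcAKO and 4.52, 5.45 and 5.17 FPKM in Tfrcfl/fl tissue. The groups did not overlap and the difference was small. It rose by 0.27 (SE 0.09, limma adjusted p = 0.0490) and failed in each fit without 1 library, with adjusted p between 0.0509 and 0.141. The adjusted p was 0.0845 with no filter and 0.0533 without trend and robust moderation.

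Klf4, a zinc-finger factor of epithelial, endothelial and myeloid cells (ENSMUSG00000003032, chromosome 4, 55527143 to 55532466, minus strand), was at 29.4, 26.2 and 22.6 FPKM in TfrcAKO and 18.3, 22.2 and 20.4 FPKM in Tfrcfl/fl tissue. The lowest TfrcAKO sample, 22.6 FPKM, was just above the highest Tfrcfl/fl sample, 22.2 FPKM. It rose by 0.35 (SE 0.12, limma adjusted p = 0.0498). Without TfrcAKO replicate 3 the log2 fold change was 0.45 with a limma adjusted p of 0.0108, and without any other single library it did not pass, with adjusted p between 0.0696 and 0.144. It also did not pass with a pseudocount of 0.1 (adjusted p = 0.0506), with no filter (0.0883) or without trend and robust moderation (0.0636).

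By level per length, the order in TfrcAKO tissue fell into 3 tiers that did not overlap. Atf3, Klf4, Jun, Junb and Fos lay between 10.9 and 64.2 FPKM with ranges that overlapped one another. Nr4a1, Egr1 and Egr2 overlapped between 2.86 and 8.58 FPKM, and Egr3 and Fosb between 0.643 and 1.82 FPKM. In Tfrcfl/fl tissue more neighbours were separate. Atf3 stood alone at 131 to 165 FPKM, followed by Junb and Fos, which overlapped, then Jun, then Egr2 and Klf4, which overlapped, and then Egr1, Nr4a1, Egr3 and Fosb, each below the range of the one before. These are levels within 1 set of samples, compared as FPKM.

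Within a genotype most members had the same highest and lowest sample. In Tfrcfl/fl tissue replicate 1 was the lowest of the 3 samples for all 10 members and replicate 2 the highest for 8; over all tested genes replicate 1 was lowest for 36.2% and replicate 2 highest for 48.4%. In TfrcAKO tissue replicate 1 was the highest for 9 members and replicate 3 the lowest for 9, while over all tested genes these shares were 40.0% and 49.5%. The exceptions were Nr4a1, which was highest in TfrcAKO replicate 2, and Egr1, which was lowest there. The median SD of log2(FPKM + 0.5) within TfrcAKO was 0.34 over the members and 0.16 over all tested genes, and within Tfrcfl/fl it was 0.19 over the members and 0.10 over all tested genes. Atf3, Egr2 and Fos had SDs of 0.98, 0.75 and 0.73 within TfrcAKO, above those of 99.3%, 97.9% and 97.8% of tested genes. Nr4a1 had the smallest, 0.06, above that of 12.5% of tested genes.

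**Figure D3:**
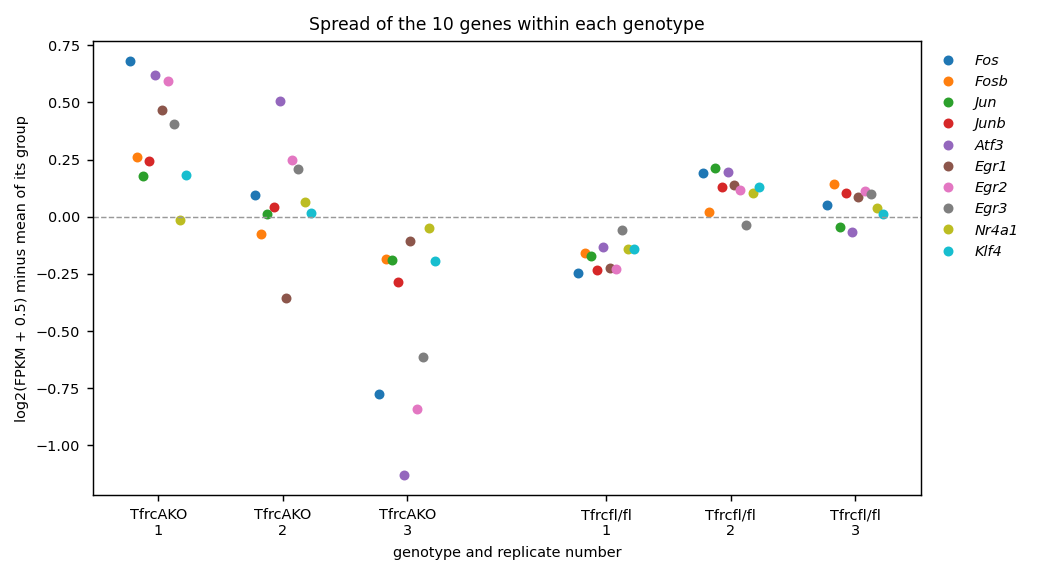
Deviation of log2(FPKM + 0.5) of each gene from the mean of its own genotype (y axis) in each sample (x axis); colours are genes. All 10 points of Tfrcfl/fl replicate 1 are below 0, and Atf3, Egr2, Fos and Egr3 lie lowest in TfrcAKO replicate 3.

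Markers of the cells of the fat pad moved between the same samples. For comparison, 21.6% of all tested genes were called lower and 21.9% higher. Of 14 macrophage markers 12 fell and 0 rose, with a median log2 fold change of −1.10; the exceptions were Fcgr1 (−0.80, limma adjusted p = 0.0976) and Cd163 (0.02, limma adjusted p = 0.921). Of 14 mature adipocyte markers 13 rose and 0 were called lower. The exception was Cd36 (−0.20, limma adjusted p = 0.218), which was lower in every TfrcAKO sample than in every Tfrcfl/fl sample. Of 12 endothelial markers 12 rose, of 9 pericyte and smooth muscle markers 7 rose, and of 8 mesothelial markers 7 rose. Of 10 progenitor and fibroblast markers 2 fell, of 10 T and NK cell markers 1 fell, of 5 tested B cell markers 0 were called, of 3 tested neutrophil markers 2 fell, of 6 tested mast cell markers 5 fell, and of 5 tested red blood cell markers 5 rose. None of the markers of these lists was at 0 in all samples. Their summed FPKM in TfrcAKO against Tfrcfl/fl tissue ranged from 1507 to 3363 against 6099 to 7031 for macrophages, from 21534 to 29047 against 10056 to 13278 for adipocytes, and from 316 to 479 against 152 to 174 for the endothelium.

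Set against the macrophage markers of the same sample, the members separated differently. Per 1000 FPKM of summed macrophage markers, Fos was 9.11, 6.47 and 7.20 in TfrcAKO and 6.35, 7.48 and 7.51 in Tfrcfl/fl tissue, so the groups overlapped. Junb, at 7.95, 7.41 and 12.2 in TfrcAKO and 7.12, 7.96 and 8.68 in Tfrcfl/fl tissue, overlapped as well, as did Egr1 and Egr3. Atf3 remained lower by this ratio, at 19.1, 18.9 and 12.4 in TfrcAKO against 21.5, 23.4 and 21.6 in Tfrcfl/fl tissue. Egr2 was likewise lower, at 2.55, 2.12 and 1.90 in TfrcAKO against 3.12, 3.46 and 3.82 in Tfrcfl/fl tissue. Jun, Fosb, Nr4a1 and Klf4 were higher by this ratio in every TfrcAKO sample. The summed markers were lower in every TfrcAKO sample, so any gene that fell less than they did, or rose, is raised by this ratio. Within that sum Lyz2 alone had a mean of 1179 FPKM in TfrcAKO and 3284 FPKM in Tfrcfl/fl tissue. The share of all tested genes that separate by this ratio was not computed. The ratio was added after the values were seen and was not tested; it does not show which cells made the RNA. The part of these marker differences in the members' differences was not tested.

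**Figure D4:**
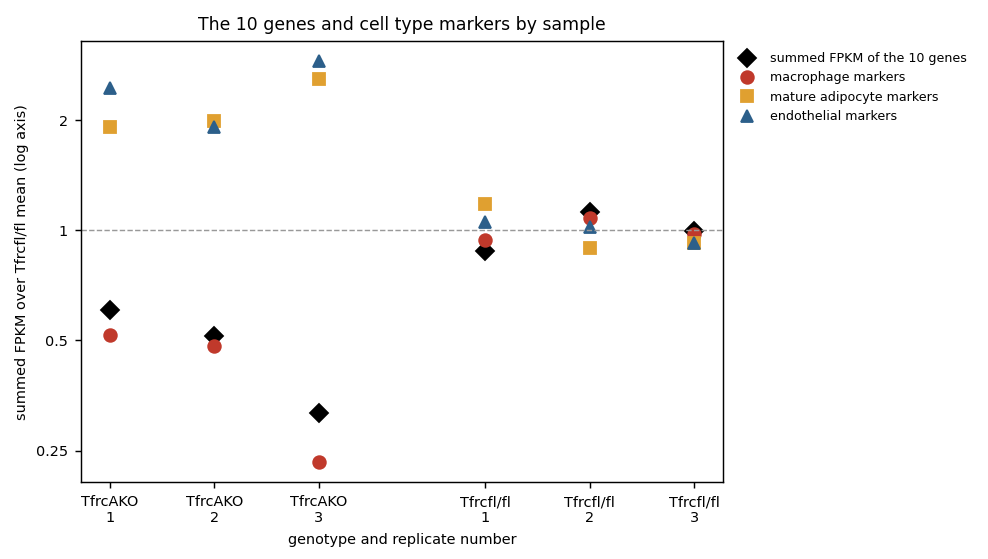
Summed FPKM of the 10 genes and of 3 cell type marker lists in each sample, over the mean of the Tfrcfl/fl samples (y axis, log scale). The 10 genes (203, 172 and 106 FPKM in TfrcAKO) and the macrophage markers (3363, 3134 and 1507 FPKM) lie below 1 in TfrcAKO samples, and adipocyte and endothelial markers above.

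Other genes of the same response moved in both directions. Of 33 tested immediate early genes outside the 10, 7 rose and 11 fell, a share called of 54.5%, with a median log2 fold change of −0.10. The share called over all tested genes was 43.5%. Plk2, a polo-like kinase, was at 21.9, 19.1 and 16.0 FPKM in TfrcAKO and 50.9, 57.8 and 57.7 FPKM in Tfrcfl/fl tissue, a fall of 1.53 (SE 0.12, limma adjusted p = 0.00297). Myc, the growth-promoting transcription factor, fell by 0.78 (SE 0.12, limma adjusted p = 0.00477). Klf6, a relative of Klf4, fell by 0.69 (SE 0.11), with a limma adjusted p of 0.00588. Btg2, an antiproliferative gene, rose by 0.46 (SE 0.07, limma adjusted p = 0.00574). Within the NR4A family, Nr4a2 was at 0.841, 0.807 and 0.677 FPKM in TfrcAKO and 0.375, 0.506 and 0.437 FPKM in Tfrcfl/fl tissue. Tfrcfl/fl replicates 1 and 3 lay under the filter level of 0.5 FPKM, so Nr4a2 entered the test through its TfrcAKO values. Its rise of 0.44 (SE 0.13, limma adjusted p = 0.0333) rests on these low levels. Nr4a3 changed by 0.33 and did not pass (limma adjusted p = 0.227). Both genes were named after their values were seen. Without Tfrcfl/fl replicate 2 or 3 the number called in this list was 9 or 10, against 18 with all samples.

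Of 12 AP-1 and ATF partners outside the members 3 fell and 0 rose, a share of 25%, with a median of −0.25. That share was below the 43.5% called over all tested genes. Jund, the Jun protein that is made steadily rather than on demand, was at 41.1, 36.5 and 30.4 FPKM in TfrcAKO and 48.7, 56.4 and 54.0 FPKM in Tfrcfl/fl tissue, with no overlap. It fell by 0.56 (SE 0.12, limma adjusted p = 0.0126), beside falls of 0.48 for the small Maf protein gene Mafg and 0.47 for Batf2 (limma adjusted p = 0.0210 and 0.0286). The Fos relatives Fosl1 and Fosl2 had log2 fold changes of −0.25 and −0.24 and adjusted p of 0.199 and 0.323; both were named after their values were seen. No gene of this list passed without Tfrcfl/fl replicate 2 or without Tfrcfl/fl replicate 3, and 6 did without TfrcAKO replicate 3.

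Among 22 feedback inhibitors, genes that end the signal, 2 rose and 8 fell, with a median of −0.34 and 45.5% called. This was near the 43.5% called over all tested genes. Spred1, which restrains Ras signalling, was at 12.6, 13.7 and 8.29 FPKM in TfrcAKO and 25.4, 26.1 and 24.0 FPKM in Tfrcfl/fl tissue and fell by 1.12 (SE 0.18, limma adjusted p = 0.00552). Spry1, another inhibitor of receptor tyrosine kinase signals, rose by 0.38 (SE 0.08, limma adjusted p = 0.0116), and Dusp8, a phosphatase of stress-activated kinases, by 0.42 (SE 0.10, limma adjusted p = 0.0173). Zfp36l2, which promotes decay of AU-rich mRNAs, fell by 0.45 (SE 0.11, limma adjusted p = 0.0165). Without 1 library the count called was lowest without Tfrcfl/fl replicate 3, at 2, and without Tfrcfl/fl replicate 2, at 3; it was 6 without Tfrcfl/fl replicate 1 and 6 without TfrcAKO replicate 2.

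Of 31 upstream kinases and transcription factors 11 fell and 0 rose, with a median of −0.15 and 35.5% called. Over all tested genes 43.5% were called, 21.6% lower and 21.9% higher. Rps6ka1, a kinase downstream of ERK, was at 10.8, 9.40 and 7.76 FPKM in TfrcAKO and 17.9, 21.1 and 19.2 FPKM in Tfrcfl/fl tissue and fell by 1.03 (SE 0.13, limma adjusted p = 0.00376). Nras, Mef2a and Mkl1, a co-activator of serum response factor, fell by 0.63, 0.66 and 0.83 with limma adjusted p of 0.00448, 0.00530 and 0.00778. Srf itself had a log2 fold change of −0.15 and an adjusted p of 0.0951, and was named after its value was seen. The count called was 5 without Tfrcfl/fl replicate 2 and 7 without Tfrcfl/fl replicate 3.

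Of 14 heat shock genes, which tissue stress also induces, 2 rose and 2 fell, with a median of −0.14 and 28.6% called. That share was below the 43.5% called over all tested genes. Hspb1, a small heat shock protein, was at 151, 125 and 132 FPKM in TfrcAKO and 74.8, 63.3 and 63.5 FPKM in Tfrcfl/fl tissue and rose by 1.01 (SE 0.11, limma adjusted p = 0.00366). Hspd1, the mitochondrial chaperonin, rose by 0.55 (SE 0.13, limma adjusted p = 0.0161), while the co-chaperone genes Bag3 and Dnajb4 fell by 0.35 and 0.22 (limma adjusted p = 0.0109 and 0.0243). The count was 2 without Tfrcfl/fl replicate 2 or replicate 3, and 7 without TfrcAKO replicate 3.

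**Figure D5:**
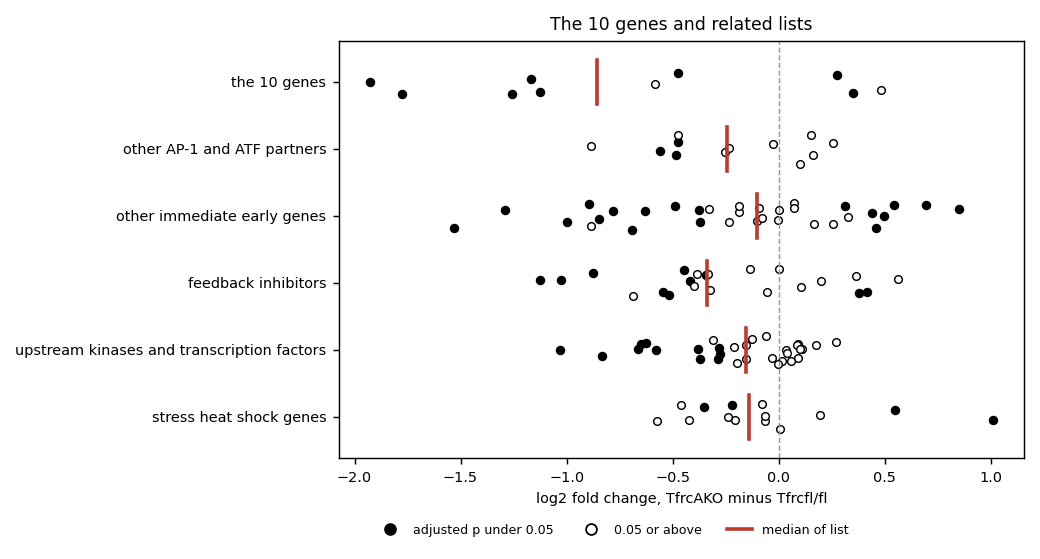
Log2 fold change, TfrcAKO minus Tfrcfl/fl, of the 10 genes and of the tested members of 5 related lists (points; filled where the adjusted p was under 0.05), with the median of each list as a red line. The median is −0.86 for the 10 genes and lies between −0.34 and −0.10 for the other lists, with called genes on both sides of 0 except among partners and upstream factors.

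The genes whose profile over the 6 samples was most like that of a member were found by the root mean square difference of log2(FPKM + 0.5), each gene centred on its own mean, among 12803 other tested genes whose mean reached 1 FPKM. For Atf3 they were Atp6v0d2, Tyrobp and Trem2, at 0.05, 0.06 and 0.08, where Atf3 itself deviated from its mean by 1.06. For Fos they were Rgs14, Tes and Oasl1, at 0.07, 0.09 and 0.10, against 0.77 for Fos itself. For Jun they were Larp7, Smox and Ddx39, at 0.03, 0.03 and 0.04, against 0.28. For Klf4 they were Mxra8, Sema4a and Plxna3, at 0.05, 0.07 and 0.07, against 0.22. For Egr1 they were Sdcbp2, Clcf1 and Cdc25b, at 0.11 each, against 0.40 for Egr1 itself. Likeness is a description over 6 samples of 2 genotypes.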

How the data were processed

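The deposited table gives FPKM per gene with 1 column per sample, per the file headers; the gene length in bases stands beside it. CASAVA, FastQC, STAR 2.5, HTSeq 0.6.1 and build mm10 are named in the submitters' processing notes; no source used here gives the annotation release, strand setting or filters. The authors' FPKM times length in kilobases summed to 1000000 per sample, and all values (100% within 0.01 of a read) were whole multiples of 1 read, which gave back the depth. A count of 3 on a 2 kb gene equals 0.0489 to 0.0594 FPKM, counting error only. Genes reaching 0.5 FPKM in a minimum of 3 samples entered the test as log2(FPKM + 0.5) with limma 3.58.1 (R 4.3.3, trend, robust, two-sided, Benjamini-Hochberg over 14383 genes); fold changes on this scale understate those of low genes. The members, the gene lists and the tests were chosen with earlier results of these data known. Named list genes are up to 4 called genes with the smallest p per list; others named are marked as such. For Fos, Jun, Atf3, Egr1 and Klf4 the 3 tested genes most alike in profile are named. Alternatives were pseudocounts of 0.1 and 1, a filter at 1 FPKM, no filter, median-of-ratios scaling, limma-voom on recovered reads, a replicate block, plain moderation, and leaving out libraries. The procedure was tested on simulated data in which few genes changed and no library stood apart. These data differ in both, so the simulation does not show how the procedure does on them. The 27 names turned into dates were restored by identifier, and Adgre1 was found under its older name. Promoter windows are RefSeq's; none was used for Egr1 and Egr3.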

Additional observations from a re-analysis of the deposited data

How the results depend on the processing

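No member changed direction under any alternative run in which it was tested. Fosb was not tested with the filter at 1 FPKM, a level it reached only in TfrcAKO replicate 1. The number of members called higher, 2, was 1 with a pseudocount of 0.1, 0 with no filter, 0 with the replicate block and 1 without trend and robust moderation. Under no filter the log2 fold changes of Jun, Nr4a1 and Klf4 were −0.48, 0.27 and 0.35 and no longer passed; the same held under the block (−0.48, 0.27 and 0.35). Without trend and robust moderation Nr4a1 (0.27) and Klf4 (0.35) did not pass, nor did Klf4 (0.36) with a pseudocount of 0.1, while Fosb passed (0.48). Fosb also passed with median-of-ratios scaling (0.49) and with limma-voom (0.83). Of the lists, feedback inhibitors had 6 called with no filter, AP-1 partners 1 with the block, and heat shock genes 7 with median-of-ratios scaling and 7 with limma-voom. Over all genes limma-voom called 6470, against 6253. More genes enter the adjustment with no filter; the cause of the other differences was not tested.

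Leaving out libraries, 1 at a time or TfrcAKO replicate 3 with Tfrcfl/fl replicate 2, gave 3371 to 5958 called genes (3371 without Tfrcfl/fl replicate 2 and 3456 without replicate 3), 2 to 7 members lower and 0 to 2 higher. Members' log2 fold changes ranged from −1.60 to −0.77 for Fos, 0.35 to 0.58 for Fosb, −0.57 to −0.27 for Jun, −2.09 to −1.11 for Atf3, −0.82 to −0.41 for Egr1, −1.33 to −0.82 for Egr3, 0.20 to 0.35 for Nr4a1, 0.26 to 0.51 for Klf4 and −0.62 to −0.42 for Tfrc. Counts called ranged from 0 to 6 for AP-1 partners, 9 to 20 for other immediate early genes, 2 to 13 for feedback inhibitors, 5 to 12 for upstream factors and 2 to 7 for heat shock genes. Fewer samples also lower the number that can pass.

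Deviations from the group means correlated across genes at −0.24, 0.03 and −0.18 for equal replicate numbers 1, 2 and 3. Unequal numbers gave −0.08 to 0.23. With 3 samples a group these values cannot show whether the samples were paired. With the replicate block 5 members were lower, 0 higher, and 4581 genes called in all. With 3 samples a group, an exact permutation test of 1 gene could not have passed 0.05, and Fosb and Egr3 rest on 23 to 156 reads a sample.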
